A study of Mus musculus with 6 samples.

Results

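The 9 genes described here are cytosolic and endosomal sensors of foreign or misplaced RNA, together with their shared adaptor and 1 enzyme that edits double-stranded RNA: Ddx58, Ifih1, Dhx58, Ddx60, Mavs, Tlr3, Eif2ak2, Zbp1 and Adar. They were picked by symbol from 24419 genes measured in mouse cortex, all 9 were found, and all 9 passed the filter on low values that left 14796 genes. The genes were chosen with earlier results of the same comparison known, so their differences between groups are given as a description and carry no test of their own. Male mice had the middle cerebral artery blocked for 60 minutes, a model of ischemic stroke, and on day 4 RNA was taken from cells of the peri-infarct cortex dissociated with pronase for 75 minutes and sorted as Thy1-positive and negative for the astrocyte, endothelial, leukocyte and oligodendrocyte surface markers ACSA2, CD31, CD45 and O4. The 3 libraries labelled control carried loxP-flanked Padi4 alleles (Padi4flox/flox) without Cre. The 3 libraries labelled cKO carried the same alleles with Slc17a7-cre and Slc32a1-cre, drivers active in glutamatergic and GABAergic neurons, so any cell of another type in the sort keeps intact Padi4 alleles. Both groups shared the flanked alleles, the sex, the injury and the day, and no uninjured or sham library was analysed here.

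RIG-I, encoded by Ddx58, and MDA5, encoded by Ifih1, are helicases that bind double-stranded or 5′-triphosphate RNA in the cytosol and signal through MAVS on mitochondria. LGP2, encoded by Dhx58, lacks the signalling domains of the other two and modulates them, and TLR3 reads double-stranded RNA in endosomes through the adaptor TRIF. PKR, encoded by Eif2ak2, binds double-stranded RNA and phosphorylates eIF2alpha to slow translation, ZBP1 binds left-handed nucleic acid and can trigger necroptosis, and ADAR1, encoded by Adar, converts adenosine to inosine in double-stranded RNA so that the sensors do not respond to the cell's own transcripts. Most of these genes are themselves induced by interferon.

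Values are the deposited CPM (reads of a gene as a share of the library's reads) after the authors' scaling, called scaled CPM below. The libraries held 10094145 to 24056755 reads each. In both groups replicate 2 detected the fewest genes, 15261 and 14042 against 16818 to 17891 in the other 4. Padi4, the targeted gene, had 0 reads in each of the 3 libraries labelled control and 0, 3 and 12 reads in those labelled cKO (exact two-sided permutation p = 0.4, smallest possible 0.1), so it did not bear out the labels, and every direction below is that of the labels. The sort label names neurons, but 12 oligodendrocyte markers summed to between 11583 and 34401 per library against 1465 to 7560 for 14 neuronal markers, and all markers of both lists were detected. In the library labelled cKO replicate 2, 67 of 9273 genes with at least 100 reads in each other library were listed at 0, against at most 2 such genes in any of the other 5 libraries.

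The start regions of the genes are shown first because interferon-regulated promoters carry a known sequence, the interferon-stimulated response element, built from repeats of the half-site gaaa. RefSeq start regions on GRCm38.p6 (the mm10 build), from 250 bases before to 50 bases after a transcription start, were matched for 7 of the 9 genes in 9 regions, 3 of them for Adar. The pattern GAAANNGAAA, searched on both strands, matched 4 of these 7 genes, Ddx58, Ifih1, Ddx60 and Eif2ak2. Counted by region this was 4 of 9, where 3.44% of all 32851 regions of the same length held the pattern. The pattern GAAANGAAA, with a shorter spacer and chosen after the sequences had been seen, matched Ddx58 and Adar, in 2 of the 9 regions, and was present in 3.17% of all regions. A match describes letters only and is not a measured binding site. Capitals below mark the matches.
Ddx60, the 100 bases before the start, chr8:61927987-61928086, plus strand: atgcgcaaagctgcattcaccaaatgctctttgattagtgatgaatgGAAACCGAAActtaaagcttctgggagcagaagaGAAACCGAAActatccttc
Ddx58, the 100 bases before the start, chr4:40239826-40239925, minus strand: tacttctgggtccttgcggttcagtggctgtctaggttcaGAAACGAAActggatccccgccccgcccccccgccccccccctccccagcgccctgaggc
Ddx58, 30 bases around the start, chr4:40239804-40239833, minus strand: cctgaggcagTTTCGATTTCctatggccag
Ifih1, 30 bases after the start, chr2:62646206-62646235, minus strand: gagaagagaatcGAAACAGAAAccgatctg
Eif2ak2, 30 bases after the start, chr17:78882535-78882564, minus strand: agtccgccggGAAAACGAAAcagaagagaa
Adar, 30 bases after the third listed start, chr3:89730735-89730764, plus strand: gccttttcaagGAAACGAAAgtgaactctg
Mavs, the 100 bases before the start, chr2:131233963-131234062, plus strand: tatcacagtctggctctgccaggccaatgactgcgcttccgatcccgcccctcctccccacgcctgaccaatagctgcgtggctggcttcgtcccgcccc

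Ddx60 held the same 10 letters at 2 places, at 53 to 44 and at 19 to 10 bases before its start. In Ddx58 the shorter pattern lay 60 to 52 bases before the start and the longer one, on the opposite strand, 3 to 12 bases after it. The matches of Ifih1 (33 to 42 bases), Eif2ak2 (19 to 28) and Adar (29 to 37) all lay after the start. Mavs and Tlr3 held neither pattern in these 300 bases.

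**Figure D1:**
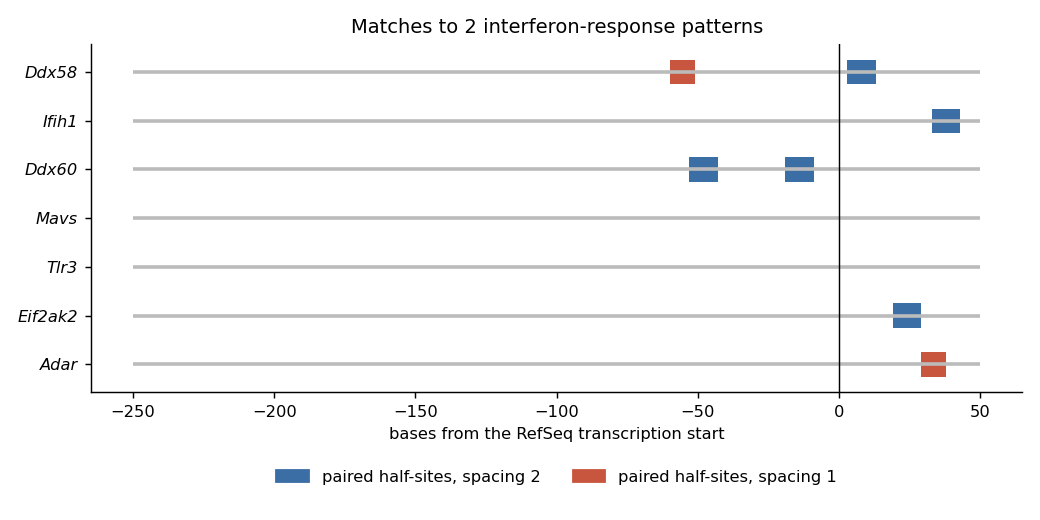
Position of pattern matches in the RefSeq start regions of 7 RNA sensor genes, in bases from the transcription start (0 line), with grey lines spanning 250 bases before to 50 after it and blocks at the matches of GAAANNGAAA (spacing 2) or GAAANGAAA (spacing 1) on either strand. The blocks of Ddx60 lie before the start, those of Ifih1, Eif2ak2 and Adar after it, and Mavs and Tlr3 have none; the line for Adar stands for all 3 of its listed starts.

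The 3 RIG-I-like receptor genes all had lower means in libraries labelled cKO than in controls, and 2 of them, Ddx58 and Dhx58, did not overlap between the groups, where 2.26% of all tested genes lay lower in this way. Ddx58 (chromosome 4, 40203773 to 40239828, minus strand) was at 45.4, 34.3 and 40.8 scaled CPM in control replicates 1 to 3 and at 25.3, 2.42 and 10.4 in the libraries labelled cKO, from 24 to 734 reads. Every library labelled cKO lay below every control, with replicate 2 lowest and replicate 1 nearest to the controls. Its group means were 40.1 ± 5.56 and 12.7 ± 11.6 (SD, n = 3 each), 3.15 times apart, and the fitted difference in log2(scaled CPM + 1), cKO minus control, was -2.02 (SE 0.68).

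Ifih1 (chromosome 2, 62595798 to 62646255, minus strand) was at 32.4, 29.1 and 18.7 in the controls and at 27.5, 3.03 and 8.97 in the libraries labelled cKO. Here replicate 1 of the libraries labelled cKO stood above control replicate 3, so the groups overlapped, while the other 2 were below all controls. The means were 26.8 ± 7.16 and 13.2 ± 12.8, with a fitted difference of -1.37 (SE 0.69).

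Dhx58 (chromosome 11, 100694884 to 100704271, minus strand), the gene for the regulatory family member LGP2, was far lower in level, at 2.58, 6.84 and 5.22 in the controls and 1.63, 1.62 and 1.52 in the libraries labelled cKO. Its 3 libraries labelled cKO were alike, 1.59 ± 0.0630 against 4.88 ± 2.15 in the controls, and did not overlap them. The gap to control replicate 1, the lowest control, is within counting error, since 28 reads there allow 1.72 to 3.73 and 34 reads in cKO replicate 1 allow 1.13 to 2.28 (exact Poisson 95% intervals). The fitted difference was -1.11 (SE 0.64), a scale that understates the change of so low a gene, and edgeR on the recovered reads gave -1.62. The annotation places Dhx58os on the opposite strand over Dhx58, and without a stated strand setting reads of the pair cannot be told apart.

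Ddx60, a helicase-like gene reported to support RIG-I signalling, showed the widest gap. Its locus is chromosome 8, 61928087 to 62038244, plus strand, and it was at 27.5, 39.2 and 29.0 in the controls and at 17.8, 0 and 5.30 in the libraries labelled cKO. The groups did not overlap, and the value of cKO replicate 2 was listed at 0 reads, under a floor of 0.303 (3 reads). The fitted difference was -2.73 (SE 0.92) and shrank to -1.58 (SE 0.54) without that library. Counting error was small beside these gaps, with 126 reads in cKO replicate 3 allowing 4.42 to 6.31 and 298 reads in control replicate 1 allowing 24.4 to 30.8.

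**Figure D2:**
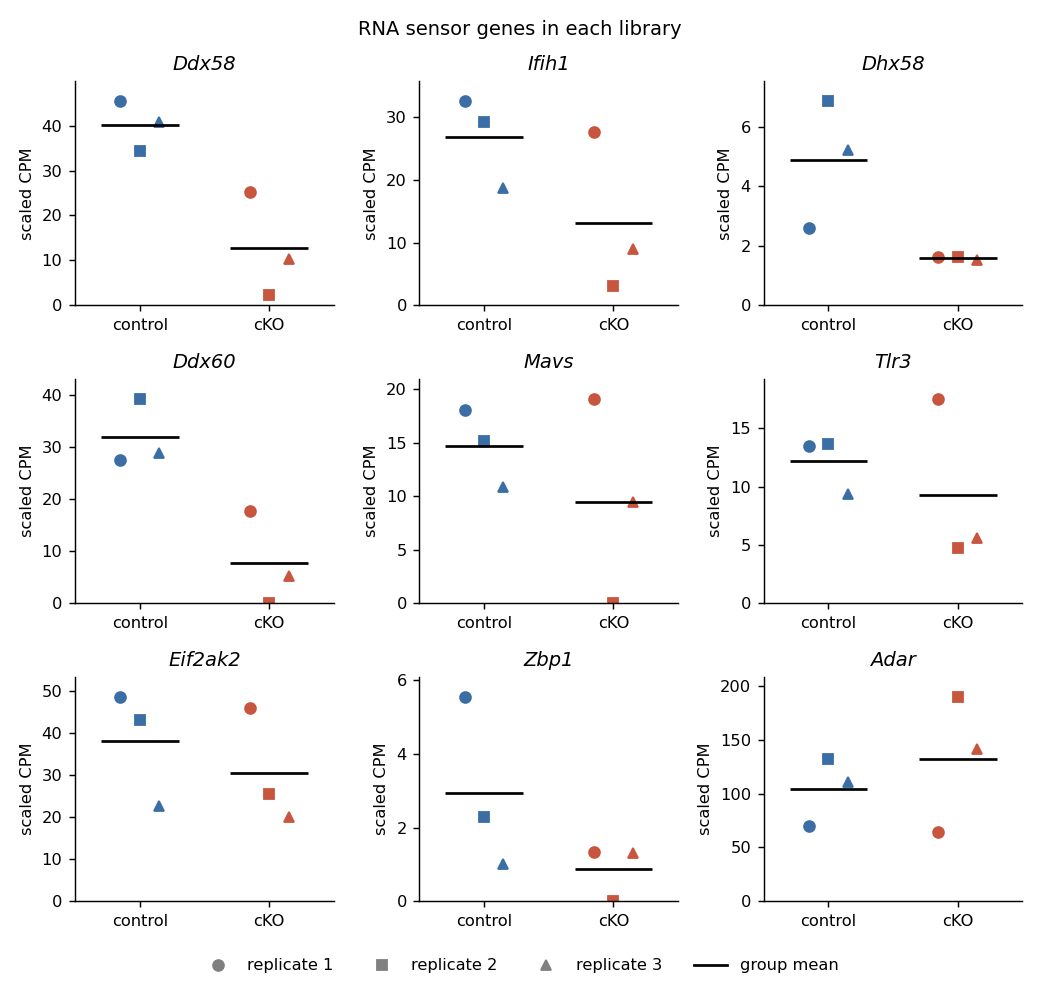
Scaled CPM of each of the 9 RNA sensor genes (linear axes starting at 0) in the 3 libraries labelled control (blue) and the 3 labelled cKO (red), with symbols for the replicate number and a line at the group mean. All red points lie below all blue points for Ddx58, Dhx58 and Ddx60 only; cKO replicate 1 reaches the control range for Ifih1, Mavs, Tlr3, Eif2ak2 and Zbp1, and Adar is highest in cKO replicate 2.

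Mavs, the adaptor through which RIG-I and MDA5 signal, depended on 1 library for its difference. Its locus is chromosome 2, 131234063 to 131248025, plus strand, and it was at 18.1, 15.2 and 10.8 in the controls and at 19.0, 0 and 9.43 in the libraries labelled cKO, where replicate 1 was the highest of all 6. The library listed at 0, cKO replicate 2, is the one that also listed Ddx60 and Zbp1 at 0. The fitted difference of -1.37 (SE 0.98) became -0.09 (SE 0.51) when that library was left out.

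Tlr3, the endosomal receptor for double-stranded RNA, was at 13.5, 13.7 and 9.33 in the controls and at 17.5, 4.75 and 5.64 in the libraries labelled cKO. The groups overlapped, since cKO replicate 1 was the highest library and the other 2 of that label were the lowest. Its locus is chromosome 8, 45395665 to 45411080, minus strand, and its fitted difference was -0.55 (SE 0.61). Of the other nucleic acid receptors of endosomes, Tlr7 reached at most 1.29, Tlr8 at most 0.0556 and Tlr9 at most 1.78 in any library, so that per kilobase of exon Tlr3, at 2.06 ± 0.961 over the 6 libraries, stood above Tlr9 at 0.249 ± 0.211 and Tlr7 at 0.113 ± 0.120 (SD, n = 6).

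Eif2ak2, the gene for PKR, overlapped between the groups. Its values were 48.4, 43.0 and 22.6 in the controls and 45.8, 25.6 and 20.1 in the libraries labelled cKO (chromosome 17, 78852564 to 78882573, minus strand). Control replicate 3 lay below 2 of the libraries labelled cKO. The means were 38.0 ± 13.6 and 30.5 ± 13.5, with a fitted difference of -0.32 (SE 0.46). Leaving out 1 library moved it to between -0.65 (without control replicate 3 or cKO replicate 1) and -0.0769 (without cKO replicate 3), with -0.12 without control replicate 1 and -0.20 without control replicate 2.

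PKR is 1 of 4 kinases that phosphorylate eIF2alpha, and its gene was not the most abundant of them. Per kilobase of exon, means over the controls were 7.43 ± 2.66 for Eif2ak2, 10.1 ± 0.0520 for Eif2ak1 (the heme-regulated kinase), 9.70 ± 0.635 for Eif2ak3 (PERK, the endoplasmic reticulum kinase) and 8.91 ± 3.41 for Eif2ak4 (GCN2, the amino acid sensor). The control range of Eif2ak2, 4.42 to 9.46, overlapped those of Eif2ak3 and Eif2ak4 but lay below the 10.1 to 10.2 of Eif2ak1. In the libraries labelled cKO the ratio of Eif2ak2 to Eif2ak1 per kilobase was 1.09, 0.222 and 0.336, and in the controls 0.936, 0.825 and 0.438. The low ratio of cKO replicate 2 goes with its Eif2ak1 level of 22.6 per kilobase, more than any other library.

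Zbp1, the sensor linked to necroptosis, was near the limit of detection. It was at 5.53, 2.28 and 1.00 in the controls and at 1.34, 0 and 1.30 in the libraries labelled cKO, from 0 to 60 reads (chromosome 2, 173206612 to 173218923, minus strand). Its groups overlapped, with control replicate 3 below 2 of the libraries labelled cKO. The fitted difference was -0.996 (SE 0.74), and -1.71 with edgeR on the recovered reads. A larger fall with edgeR held for Zbp1 and Dhx58 only. Smaller falls came from edgeR for Ddx58 (-1.65), Ddx60 (-2.04), Ifih1 (-1.02), Mavs (-0.63) and Tlr3 (-0.39). For Eif2ak2 it gave -0.32, and for Adar 0.34.

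Adar was the 1 gene of the 9 with a higher mean in the libraries labelled cKO. It was at 70.0, 132 and 111 in the controls and at 64.5, 189 and 142 in the libraries labelled cKO, with 759 to 3364 reads per library (chromosome 3, 89715022 to 89753446, plus strand). Both replicates numbered 1 were the lowest of their group, and cKO replicates 2 and 3, the libraries with the lowest Ddx58, Ifih1 and Ddx60, had the highest Adar. The fitted difference was 0.25 (SE 0.43), -0.08 without cKO replicate 2 and -0.01 without control replicate 1. The long, interferon-inducible and the short, constitutive ADAR1 transcripts are not separated by a value per gene. The annotation places Chrnb2, a nicotinic receptor gene, on the opposite strand over Adar.

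Among the deaminases acting on RNA, Adar had the highest level per kilobase of exon in each of the 6 libraries. It was at 14.5 ± 5.79 over the 6 libraries, against 5.19 ± 2.59 for Adarb1, which encodes the editing enzyme of glutamate receptor transcripts, and 3.67 ± 1.26 for the brain-restricted Adarb2. The ratio of Adar to Adarb1 was 2.83, 2.48 and 3.10 in the controls and 4.39, 3.59 and 1.98 in the libraries labelled cKO, so the groups overlapped.

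**Figure D3:**
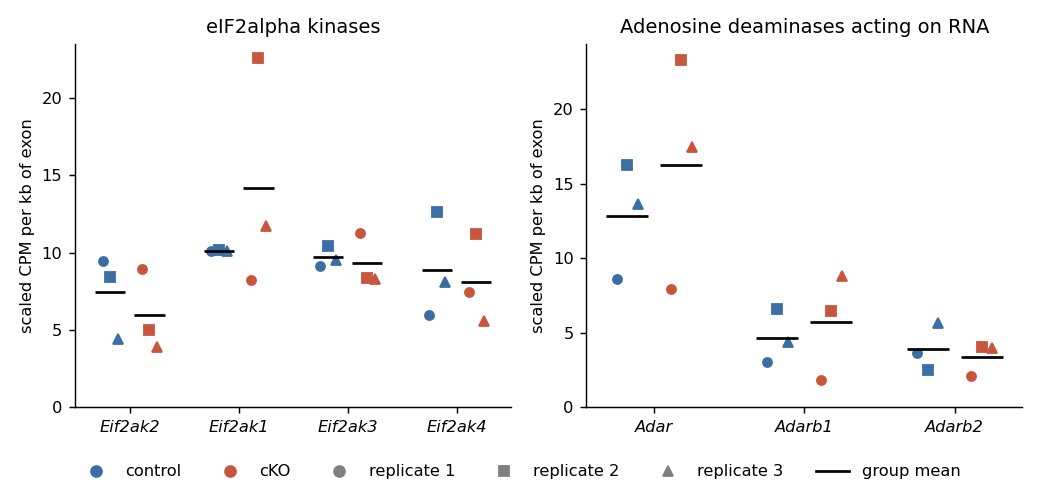
Scaled CPM per kilobase of annotated exon (linear axes starting at 0) for the 4 eIF2alpha kinase genes and the 3 genes of adenosine deaminases acting on RNA, by library, with blue for control, red for cKO, symbols for the replicate number and lines at the group means. Eif2ak2 lies below Eif2ak1 in every control, and Adar lies above Adarb1 and Adarb2 within each of the 6 libraries.

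Ordered by level per kilobase of exon in the controls, the genes ran from Adar at 12.8 ± 3.90 through Eif2ak2 at 7.43 ± 2.66, Ddx58 at 5.69 ± 0.789, Mavs at 4.39 ± 1.09, Ddx60 at 3.67 ± 0.735, Ifih1 at 3.28 ± 0.877, Tlr3 at 2.33 ± 0.470 and Dhx58 at 1.49 ± 0.657 to Zbp1 at 0.832 ± 0.662. No neighbours in that order were separated beyond the spread of the controls, since the ranges of each adjacent pair overlapped. Read within each library, Tlr3 stood above Dhx58 in 6 of 6 libraries, and Ddx58 above Mavs and Ifih1 above Tlr3 in 3 of 3 controls, while the other 5 adjacent pairs kept their order in 2 of 3 controls. In the libraries labelled cKO the means were 16.2 for Adar and 5.96 for Eif2ak2, and at most 2.84 for any of the other 7. Within libraries, Ddx58 stood above Ifih1 per kilobase in all 3 controls, at ratios of 1.62, 1.36 and 2.52, and the 2 were closer in the libraries labelled cKO, at 1.07, 0.927 and 1.35.

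By library, the sensors were lowest in cKO replicate 2 for 6 of the 9 genes, in cKO replicate 3 for Dhx58 and Eif2ak2, and in cKO replicate 1 for Adar. No control was the lowest library for any of them. The mean of log2(scaled CPM + 1) over the 9 genes was 4.43, 4.50 and 4.06 in the controls and 4.06, 2.22 and 3.30 in the libraries labelled cKO, so cKO replicate 1 was level with control replicate 3. In cKO replicates 2 and 3, 7 of the 9 genes each lay below all controls, where 36.3% and 21.2% of all tested genes did so, and in cKO replicate 1 this held for 4, where 22.5% of all tested genes did so. The genes below all controls in cKO replicate 1 were Ddx58, Dhx58, Ddx60 and Adar.

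Over the comparison as a whole, 8 of the 9 genes had a fitted difference below 0, as did 52% of the 14796 genes tested, with a median of -1.11 against -0.02 for all tested genes. Without cKO replicate 2 all 9 were below 0, with a median of -0.59 against 0.04. In Ddx58, Dhx58 and Ddx60 every library labelled cKO lay below every control, 3 of 9 genes where 2.26% of tested genes did so, and the count was 3 of 9 without cKO replicate 2, where 4.12% of tested genes did so. It was 6 of 9 without cKO replicate 1 and 5 of 9 without control replicate 3, where 11.0% and 4.41% of tested genes met the condition. Since the genes were chosen with this comparison known, nothing is read from these counts.

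At an adjusted p under 0.05 (Benjamini-Hochberg over all tested genes), limma called 0 of the 9 genes lower, as it did 0% of all genes, and edgeR called 0 of 9 and 0% likewise. DESeq2 called 0 of the 9 and 0.00676% of all genes, which was Ifit3 alone. Below an unadjusted p of 0.05 were Ddx58 and Ddx60 with limma, 2 of 9 where 0.514% of all genes were lower at that level, and Ddx58 alone with edgeR (0.216% of all genes) and with DESeq2 (0.527% of all genes). The labels do not say that the libraries came from separate animals, so these p-values measure only sample-to-sample spread, part or all of which may be technical.

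**Figure D4:**
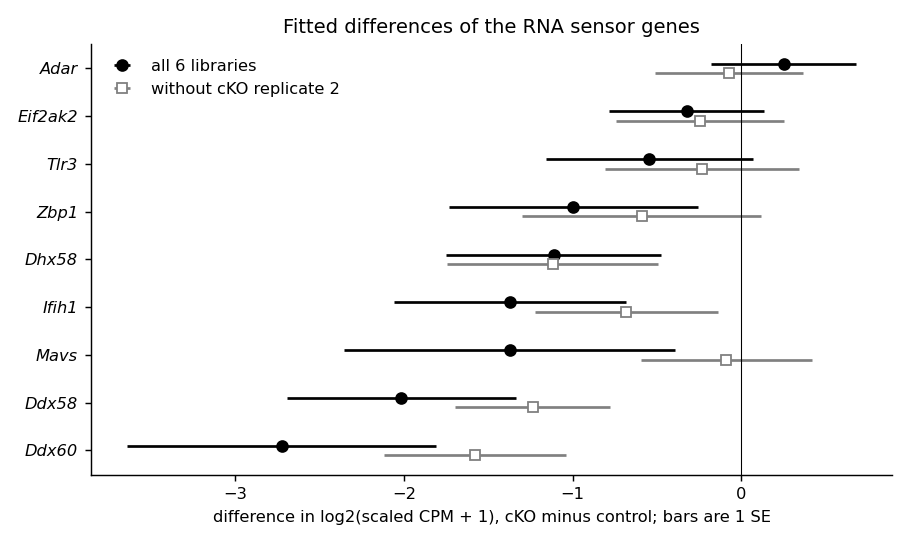
Fitted difference in log2(scaled CPM + 1), cKO minus control, for the 9 RNA sensor genes, with bars of 1 SE, from all 6 libraries (filled) and without cKO replicate 2 (open). Ddx60, Ddx58 and Dhx58 stay below -1 in both, Mavs moves from -1.37 to -0.09, and Adar moves from 0.25 to -0.08.

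Marker levels of other cell types differed among the same libraries. In bulk RNA, fewer cells of a type and less RNA per cell cannot be told apart. A marker counts as detected here if it had reads in at least 1 of the 6 libraries. Microglia and macrophages had 14 of 14 markers detected, summing to 66.2 to 100.3 in the controls and 52.3 to 94.2 in the libraries labelled cKO. Of these, 9 markers were tested, 5 of them with a difference below 0. Microglial markers at 0 numbered 4 in control replicate 2 and 5 in cKO replicate 2, against 0 or 1 in the other libraries. Endothelial markers, 11 of 11 detected, summed to 70.5 to 172 and 119 to 174, with 2 at 0 in each library numbered 2. Neutrophil markers, 6 of 6 in the table detected, summed to at most 3.89 in any library and lymphocyte markers to at most 2.33, with Cd3e and Ms4a1 at 0 in all 6. Pericyte, smooth muscle and fibroblast markers had 12 of 12 detected. Their sums were 4985, 486 and 687 in the controls and 2952, 222 and 2745 in the libraries labelled cKO. The lowest sum was in cKO replicate 2, where the mean log2 level of the sensors was lowest. Elsewhere the 2 orders differed. Control replicate 2 had a sum of 486 with the highest sensor mean, 4.50, and cKO replicate 3 a sum of 2745 with a sensor mean of 3.30. Astrocyte markers, 11 of 11 detected, summed to 868 to 1264 and 1152 to 2365, the highest also in cKO replicate 2. The neuronal sum was highest in cKO replicate 3, at 7560, and the oligodendrocyte sum lowest there, at 11583. Oligodendrocyte precursor markers, 8 of 8 detected, summed to 2667 to 2977 and 2076 to 3687, and ependymal markers, 5 of 6 detected with Tmem212 at 0 in all, to 3.83 to 10.4 and 11.4 to 35.9. The part of these cell types in the sensor levels was not tested.

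The genes that act with the sensors were read from lists by role, 152 genes in the table of which 136 were tested. At the adjusted threshold, limma and edgeR called 0 of the 136 in either direction and DESeq2 called 1, Ifit3. At an unadjusted p under 0.05, limma had 1 higher and 12 lower, where 0.338% and 0.514% of all tested genes were. The counts were 1 and 2 with edgeR (0.277% and 0.216% of all genes) and 1 and 7 with DESeq2 (0.656% and 0.527%). In 15 of the 136, every library labelled cKO lay below every control, where 2.26% of all tested genes did so. The interferon-stimulated list held 10 of these 15. Genes named from a list below were picked by smallest unadjusted p, which favours groups that do not overlap. Of the 136, 91 had a difference below 0, where 52% of all tested genes did, with a median of -0.14 against -0.02. The interferon-stimulated list, drawn up with earlier results known, held 19 of these 91 and 9 of the 12 that limma had lower. Without cKO replicate 2, 77 of the 136 were below 0, where 6743 of 14632 tested genes were, with a median of -0.05 against 0.04.

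Activators of RIG-I-like receptors were below 0 in 11 of 19, with a median of -0.03, and in 6 of 19, with a median of 0.08, without cKO replicate 2. Rnf135, the gene for the ubiquitin ligase Riplet that modifies RIG-I, was at 6.82, 9.27 and 3.50 in the controls and 2.45, 0 and 2.02 in the libraries labelled cKO, which did not overlap (difference -1.71, SE 0.73). Trim25, another RIG-I ubiquitin ligase gene, was at 37.4, 30.4 and 31.6 against 39.8, 1.01 and 15.4. That is the pattern of Ifih1 and Mavs, with cKO replicate 1 inside or above the control range and cKO replicate 2 lowest. Ifit3, which has been described as bridging MAVS to its kinase, had the smallest unadjusted p of the list (difference -2.29, SE 0.48).

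Restrainers of the pathway were below 0 in 10 of 19, with a median of -0.04, and in 10 of 19, with a median of -0.00197, without cKO replicate 2. Nlrc5, an interferon-induced NOD-like receptor gene, was at 11.98, 24.9 and 12.9 in the controls and 11.8, 0 and 3.37 in the libraries labelled cKO (difference -2.13, SE 0.88, and -1.16 without cKO replicate 2). Nlrx1, a mitochondrial protein gene that dampens MAVS, had a difference above 0, at 6.73, 8.09 and 3.83 against 5.95, 27.5 and 10.7 (0.92, SE 0.66, and 0.37 without cKO replicate 2). Tnfaip3, the gene for the deubiquitinase A20, was at 34.8, 5.22 and 28.1 against 26.3, 0 and 13.0, low in both libraries numbered 2, and its difference of -1.36 turned to 0.07 without cKO replicate 2.

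Kinases, TRAF proteins and transcription factors below MAVS and TRIF were below 0 in 14 of 21, with a median of -0.14, and in 11 of 21, with a median of -0.02, without cKO replicate 2. Traf6 was at 80.7 ± 20.6 and 47.0 ± 26.0, and Irf3, the transcription factor that MAVS signalling activates, at 21.2 ± 4.39 and 13.4 ± 2.94. Ikbkg, the gene for the kinase scaffold NEMO, was higher in every library labelled cKO, at 44.7, 45.2 and 37.4 against 28.6, 27.7 and 27.7 (difference 0.58, SE 0.35). The annotation places G6pdx over Ikbkg on the opposite strand.

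Endosomal receptors, chaperones and adaptors were split, with 7 of 14 tested on each side of 0 and a median of 0.04, and with 4 of 14 below 0 and a median of 0.21 without cKO replicate 2. Slc15a4, an endolysosomal transporter gene, was at 39.5, 36.1 and 27.1 against 35.3, 1.21 and 24.1. Cnpy3, a Toll-like receptor chaperone gene, was at 25.3, 17.9 and 28.2 against 22.1, 41.8 and 45.0, and Irak4, a kinase gene, at 4.98 ± 5.02 and 8.52 ± 5.32.

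Genes around PKR, meaning the other eIF2alpha kinases, regulators, substrate and phosphatase subunits, were below 0 in 13 of 15, with a median of -0.13 and no difference past the threshold. Without cKO replicate 2 this was 11 of 15, with a median of -0.04. Prkra, which encodes the PKR activator PACT, was at 13.2, 9.93 and 10.4 against 10.6, 0 and 10.4, so that its difference of -1.25 became -0.07 without cKO replicate 2. Atf4, whose translation rises when eIF2alpha is phosphorylated, was at 145 ± 60.7 and 101 ± 13.4, and Ppp1r15a, a phosphatase subunit gene downstream of it, at 68.8 ± 28.3 and 49.0 ± 5.75. Control replicate 3 was the highest library for both.

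Partners of ZBP1 in cell death were below 0 in 5 of 11, with a median of 0.03, and in 4 of 11, with a median of 0.42, without cKO replicate 2. Ripk3, the kinase ZBP1 binds, reached at most 3.79 and did not pass the filter. Cflar, which encodes the caspase-8 inhibitor c-FLIP, was at 41.9 ± 12.7 and 24.4 ± 10.9. Casp6 was at 5.16, 2.65 and 3.06 against 2.02, 0.303 and 1.85, which did not overlap. Tnfrsf1a was at 39.3, 2.50 and 35.7 against 38.1, 33.1 and 29.3, with control replicate 2 far below the other 5 and a fitted difference of 0.99 (SE 0.82).

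Oligoadenylate synthases, which make the signal that activates RNase L, were mostly too low to be tested, 5 of 11 genes of the list passing the filter, all 5 below 0, with a median of -0.42. Oas1b was at 2.58, 11.3 and 3.11 against 0.816, 0 and 1.47, and Oasl2, an interferon-induced family member, at 22.9, 18.5 and 16.1 against 13.0, 9.80 and 7.16, neither overlapping. The Oas1 genes are close paralogs among which reads could be split. Abce1, which encodes an RNase L inhibitor, was at 149 ± 32.9 and 123 ± 33.8.

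Other editing and decay enzymes were below 0 in 11 of 17, with a median of -0.20. Samhd1, an interferon-induced nuclease and nucleotide hydrolase gene, was at 26.5, 25.1 and 21.8 against 18.6, 4.14 and 18.1, which did not overlap. Rnaseh2a, a ribonuclease H2 subunit gene, was at 13.3 ± 5.96 and 7.08 ± 6.38. Rnaset2b, a lysosomal RNase gene with the near-identical copy Rnaset2a, was higher in every library labelled cKO, at 9.31, 6.16 and 9.13 against 3.41, 0.956 and 1.06 (difference 1.80, SE 0.64). Rnaset2a was listed at 0 in all 6 libraries, and how reads were assigned between the copies is not known.

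Of the interferon genes listed, Ifnb1, Ifna2, Ifna4 and Ifnl3 had 0 reads in all 6 libraries and Ifnl2 had 1 read in 1 library, so none was tested. Interferon-stimulated genes outside the 9 sensors were below 0 in 19 of 19 tested, with a median of -1.53, and in 18 of 19, with a median of -1.21, without cKO replicate 2. From all 6 libraries, 10 of the 19 did not overlap between the groups, where 2.26% of all tested genes did so. The list was drawn up with earlier results of these libraries known and is not independent evidence of its direction. Ifit1, Ifit3 and Usp18 had the smallest unadjusted p values of it. Ifit1 was at 31.4, 30.7 and 38.3 against 10.3, 8.08 and 11.3, and Ifit3 at 28.2, 47.3 and 32.2 against 8.01, 6.36 and 5.05. In these 2 genes the 3 libraries labelled cKO were close together, whereas Ddx58 spread from 2.42 to 25.3 over the same libraries.

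**Figure D5:**
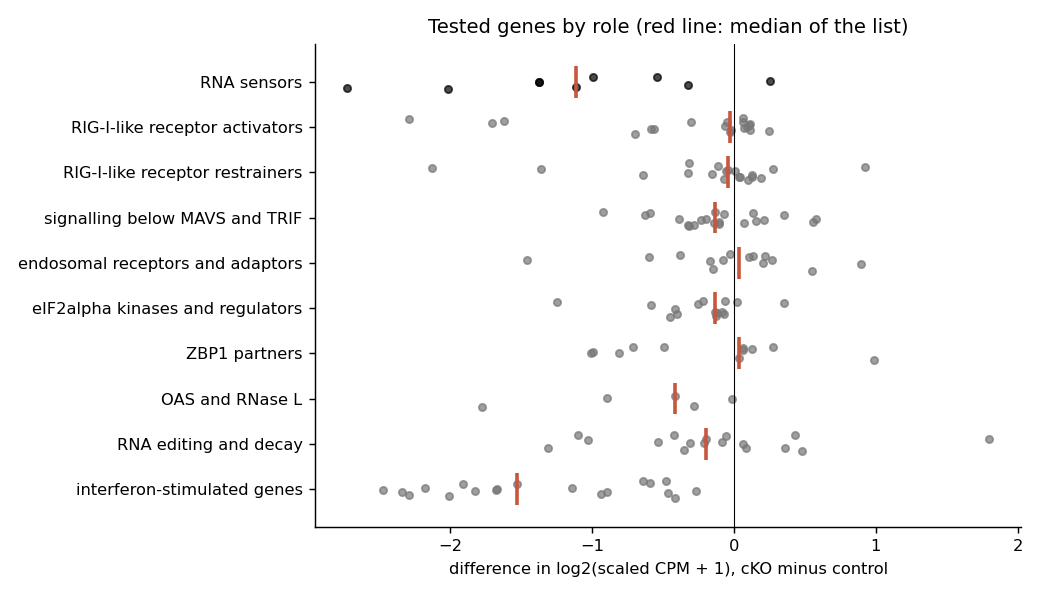
Fitted difference in log2(scaled CPM + 1), cKO minus control, of every tested gene in each list by role (points, spread vertically at random) with the list's median as a red line. The medians of the sensors (-1.11) and of the interferon-stimulated list (-1.53) lie furthest from 0, and the medians of the other 8 lists lie between -0.42 and 0.04.

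The genes most like Ddx58 across the 6 libraries were Zfp677, Saal1, Swt1, BC068281 and Parp9, by the root mean square difference of centred log2(scaled CPM + 1) among 11626 candidates with a mean of at least 5. Their distances from Ddx58 were 0.23 for Zfp677, 0.31 for Saal1, 0.34 for Swt1, 0.34 for BC068281 and 0.34 for Parp9. Among the other sensors the nearest to Ddx58 was Ifih1, at 0.43, followed by Ddx60 at 0.59 and Mavs at 0.64, and the farthest was Adar, at 1.76. Parp9, an interferon-induced ADP-ribosyltransferase family gene, was at 19.9, 12.8 and 10.3 in the controls and 12.1, 0 and 2.36 in the libraries labelled cKO. Closest to the mean of the 9 sensors were Bcl2l11, AI987944, Clcn5, Xrcc6 and Cdc7, at 0.05 to 0.18. Bcl2l11, which encodes the pro-apoptotic protein BIM, was at 22.9, 26.3 and 18.4 in the controls and 19.1, 4.65 and 10.1 in the libraries labelled cKO. All 10 of these genes were lowest in cKO replicate 2 and next lowest in cKO replicate 3, the order of the profiles they were picked to match. With 6 libraries and this many candidates, near matches are a description of these libraries only.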

How the data were processed

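The deposited table holds 1 value per gene and library. Its signal is CPM that the authors rescaled per library, as column totals ran from 961962 to 1027958. The mm10 build and the tools HISAT2, Trimmomatic, edgeR and featureCounts are credited to the submitters' processing notes, without versions. The sources used here give no annotation, strand setting or rule for multiply mapped reads. Values were whole multiples of 1 step per library, so reads were recovered (100% of values within 0.001 of a whole number, relaxed in proportion above 1000 reads). The design assumed plain CPM, and its test fits either form.

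A trended fit in limma 3.58.1 (R 4.3.3) was run on log2(value + 1) for genes at 1 or more in at least 3 libraries, with Benjamini-Hochberg adjustment. Alternatives were edgeR 4.0.16 and DESeq2 1.42.0 on recovered reads, other pseudocounts, filters and scalings, a replicate block, and leaving out libraries. Exon lengths and positions came from GENCODE on GRCm38. Start regions came from RefSeq on GRCm38.p6. The fit was tested on simulated data. Intervals and floors cover counting error only, since reads may be copies of fewer molecules.

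The members and lists were chosen with earlier results of these data known. Named genes are the 9 members, Padi4, up to 3 tested genes per list by smallest unadjusted p, and the 5 genes most like Ddx58 and most like the members' mean, skipping predicted genes without a symbol. Outside that rule, Eif2ak1, Eif2ak3, Eif2ak4, Adarb1, Adarb2, Tlr7, Tlr8, Tlr9, Ripk3, Chrnb2 and the interferon genes were chosen after their values were seen.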

Additional observations from a re-analysis of the deposited data

How the results depend on the processing

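Across 16 alternatives the median difference of the 9 sensors stayed below 0, from -1.50 to -0.56, and 6 to 9 of the tested sensors were below 0. The replicate block and the filters, counted among these 16, could not change a gene's fitted difference. A filter at 5 removed Dhx58 and Zbp1 and left 6 of 7 below 0. Leaving out 1 library at a time gave medians from -1.40 to -0.59, and 0 genes called. DESeq2 was the exception in calls, with 1 gene over all genes and 1 among the pathway genes, Ifit3 in both cases, against 0 with limma. Adar ranged from -0.0751 to 0.69 when 1 library was left out, and turned to -0.01 when control replicate 1 was omitted and to -0.0751 when cKO replicate 2 was. Without cKO replicate 2 the differences of Ddx58 (-1.24), Ddx60 (-1.58), Ifih1 (-0.68), Zbp1 (-0.59), Tlr3 (-0.23) and Mavs (-0.09) were each at least 1.5 times smaller in size, and Dhx58 was at -1.12. Other single libraries moved Ifih1 (-2.10), Mavs (-2.25) and Tlr3 (-1.07, each without cKO replicate 1), Tlr3 (-0.33 without cKO replicate 3), Zbp1 (-0.55 without control replicate 1), Adar (0.44 without control replicate 2, 0.13 without cKO replicate 3 and 0.69 without cKO replicate 1) and Eif2ak2 (-0.65 to -0.0769) by over 1.5 times. The cause was not tested.

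A replicate block cannot change the fitted differences, since both groups hold the same replicate numbers, so only their errors and p-values could move. Under it limma called 0 genes. With the block the unadjusted limma p was 0.00472 for Ddx58, 0.00918 for Ddx60 and 0.0423 for Ifih1, each at an adjusted p of 0.987. Deviations of same-numbered libraries correlated at 0.49, 0.30 and 0.03, against -0.40 to 0.03 between different numbers. Each library correlated best with its own number. The labels name no pairs and the main fit used none. A chi-square per gene on the recovered reads, which also grows with depth, was 27 for control replicate 1 with cKO replicate 1. All other pairs of libraries lay at 77.0 to 301. The pair numbered 2 was at 81.2 and the pair numbered 3 at 178. What same-numbered libraries share was not tested. Other scalings moved the median of all genes by at most 0.02. The fit without both libraries numbered 2 gave -0.61 as the median of the sensors. Depth limits Zbp1 and Dhx58 most, at 0 to 60 and 16 to 94 reads per library.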
